A study of Mus musculus with 2 samples.

Results

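The genes described are the cytosolic ribosomal protein genes of the mouse, 83 of the 32285 genes in the count files, of which 51 encode proteins of the large subunit (Rpl and Rplp symbols) and 32 proteins of the small subunit (Rps symbols and Rpsa). They were chosen by symbol alone, with the 5 pseudogene symbols of the form Rps or Rpl followed by -ps left out. UMIs (unique molecular identifiers, each standing for 1 captured RNA molecule) were found for 82 of them, and 80 had at least 100 UMIs over both libraries. The ribosome reads messenger RNA and joins amino acids into protein: the small subunit holds the mRNA and the large subunit forms the peptide bond. Ribosomal protein mRNAs are among the most abundant of most cells and carry a 5' terminal oligopyrimidine tract (a TOP), through which the kinase complex mTORC1 and the RNA-binding protein LARP1 set how strongly they are translated. Neuronal cell bodies are rich in ribosomes, long known as Nissl substance, while mature mRNA of every class lies mostly in the cytoplasm, outside the compartment from which nuclear preparations are made.

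RNA was counted in single nuclei of spinal cord from wild-type C57BL/6 mice aged 6 to 8 weeks, all of which had a contusion at the tenth thoracic level and were killed on day 7. The AEVs group received daily tail-vein injections of extracellular vesicles derived from athletes, 100 µg of protein in 100 µL of phosphate-buffered saline (PBS), over 5 consecutive days. The PBS group received 100 µL of the saline alone, and all mice had the same anaesthesia and antibiotic cover. Each group is a single library made from the nuclei of 3 mice together, which leaves its differences without any check by replicates. For that reason "higher" and "lower" describe these 2 libraries, and no test across samples was possible.

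After filtering, 13979 PBS and 15594 AEVs nuclei were kept, with 72214334 and 68522474 UMIs and medians of 2597 and 2404 UMIs per nucleus. The libraries shared 177 barcodes as deposited. Nuclei fell into 27 clusters, and 10 classes that reached 100 nuclei in both libraries were named from marker genes, with the ending -like. Ribosomal protein genes were left out of the variable genes that shaped the clusters. A cluster led by Klk6, with 855 and 891 nuclei, and one of 61 and 110 nuclei stayed unnamed. The macrophage-like cluster was led by immunoglobulin genes such as Igkc beside F13a1 and Mrc1, and an oligodendrocyte-like cluster of 34 and 25 nuclei by interferon-induced genes such as Ifit3. A level is given as counts per 1000000 UMIs (CPM) of all nuclei or of a class, the share is the percent of all UMIs that fell on the 83 genes, and a ratio is AEVs over PBS. Pairs of values give PBS first, and the bounds in parentheses are of 95% intervals, which hold counting error and leave out differences between mice or pools.

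The start of the transcript is where the TOP lies, so the 30 bases around the annotated start are shown for the genes that came out at the ends of the library comparison. The first 5 are genes with the lowest ratios and the last 3 genes with the highest, and capitals mark the longest run of C and T in each window, read from the gene's strand of RefSeq on GRCm38.p6.
Rpl28: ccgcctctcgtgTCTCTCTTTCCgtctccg
Rpl38: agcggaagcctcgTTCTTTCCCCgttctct
Rpl22: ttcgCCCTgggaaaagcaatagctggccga
Rpl41: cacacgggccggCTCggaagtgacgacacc
Rps27l: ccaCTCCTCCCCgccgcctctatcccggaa
Rpl22l1: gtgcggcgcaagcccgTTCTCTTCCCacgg
Rps27: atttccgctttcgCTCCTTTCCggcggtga
Rpl35: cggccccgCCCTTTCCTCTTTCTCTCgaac
The windows lie at chr7:4792950-4792979 (plus strand) for Rpl28, chr11:114668565-114668594 (plus) for Rpl38, chr4:152325711-152325740 (plus) for Rpl22 and chr10:128549154-128549183 (minus) for Rpl41. Those of Rps27l, Rpl22l1, Rps27 and Rpl35 lie at chr9:66946071-66946100 (plus), chr3:28805493-28805522 (plus), chr3:90213634-90213663 (minus) and chr2:39005117-39005146 (minus). Each has 15 bases before and 15 from the first annotated start on, and the annotated start can lie some bases from the start used in this tissue. The marked runs of Rpl22, Rpl41 and Rps27l lie wholly before the annotated start, outside the annotated transcript, so a marked run is not by itself a TOP.

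A RefSeq window was found for 63 of the 83 genes. A run of at least 6 pyrimidines stood anywhere in the window, before or after the start, for 55.6% of these 63. The same held for 29.1% of all 27025 genes with a window, and the median longest run was 6 against 4 bases. The letters CTTTC were in the window of 16 of the 63 on the gene's strand (25.4%, all genes 3.97%) and of 4.76% on the opposite strand (all genes 3.43%). In the 300 bases around the start, CCGGAAG on either strand, the core recognised by ETS factors, was present for 25 of the 63 (39.7%, all genes 9.12%). TATAAA, the TATA box core, was present on the gene's strand for 9.52% (all genes 8.88%) and on either strand for 9.52% (all genes 14.2%). Long runs occur at both ends of the library comparison: Rpl28, with a run of 11, had the lowest ratio, and Rpl35, with a run of 18, one of the highest. Among the 60 windowed genes above the count limit, the 34 with a run of at least 6 had a median log2 ratio of 0.47 and the other 26 one of 0.46. A match is a description of these letters, not evidence of a used site.

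All 83 genes are annotated as protein-coding in GENCODE release M21, and they lie on 19 chromosomes. They are short, with a median gene length of 3368 bases and a range of 828 to 31449 bases, against a median of 24234 bases over the 17476 genes with at least 100 UMIs. Annotated small nucleolar RNA genes lie inside 30 of them, 58 in all. Ribosomal protein genes have many processed pseudogenes, and how reads that match a pseudogene were counted is not given in the sources used here, so single-gene levels are uncertain by an unknown amount. The 5 symbols with -ps that were left out held 301 and 326 UMIs.

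Transcripts of the stalk protein Rplp1, which helps to recruit elongation factors, were the most abundant, at 613 and 766 CPM. Rps14, Rpl41, Rpl13, Rpl21, Rpl23, Rpl13a, Rpl9 and Rplp2, also among the 10 with the most UMIs, ranged in the PBS library from 289 CPM (Rpl9) to 355 CPM (Rpl41) and in the AEVs library from 415 CPM (Rplp2) to 483 CPM (Rps14). Together the 10 held 22.3% of ribosomal protein UMIs in the PBS library and 22.0% in the AEVs library, so most of the total came from the other genes in both libraries. At the other end, Rpl10l, a testis paralog of Rpl10, had no UMI in either library, a floor of 3 counts allowing up to 0.0415 and 0.0438 CPM. Rpl39l, also known from testis, had 12 and 10 UMIs, and Rpl3l, a paralog of Rpl3 known from striated muscle, 16 and 49 UMIs. The ratio of Rpl3l was 3.23 (1.80 to 6.08), from counts under the limit of 100 UMIs used elsewhere. Rpl7l1 (25.1 and 33.2 CPM) and Rps27l (32.7 and 40.5 CPM) were the least abundant of the 80 genes above that limit.

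Over all nuclei the ribosomal protein genes made up a larger share of RNA in the AEVs library, and every one of the 80 genes above the count limit was on that side. They held 1.64% (1.638 to 1.644) of UMIs in the PBS library and 2.27% (2.271 to 2.278) in the AEVs library, a ratio of 1.39 (1.383 to 1.389). All 80 had a ratio above 1, where 62.1% of all 17476 genes did. For all 80 the interval lay above 1. The share of all genes with such an interval is not given, here or in the classes below, and intervals narrow as UMIs rise. Of the 80, 20 were at least 1.5-fold higher, against 8.90% of all genes, and none was at least 1.5-fold lower, against 3.88%. The count of 20 depends on the settings: it was 38 with a stricter nucleus filter, 6 with no mitochondrial limit, 3 with TMM scaling, 2 after each nucleus was thinned to 1000 UMIs and 1 when nuclei were averaged with equal weight. These counts, and those under other settings in the classes below, have no share of all genes beside them. They do not show whether all genes moved as well. The median log2 ratio was 0.47 over the 80 genes and 0.09 over all genes, and it ran from 0.22 for Rpl28 to 0.74 for Rpl22l1. TMM scaling would shift every value over all nuclei by -0.08.

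**Figure D1:**
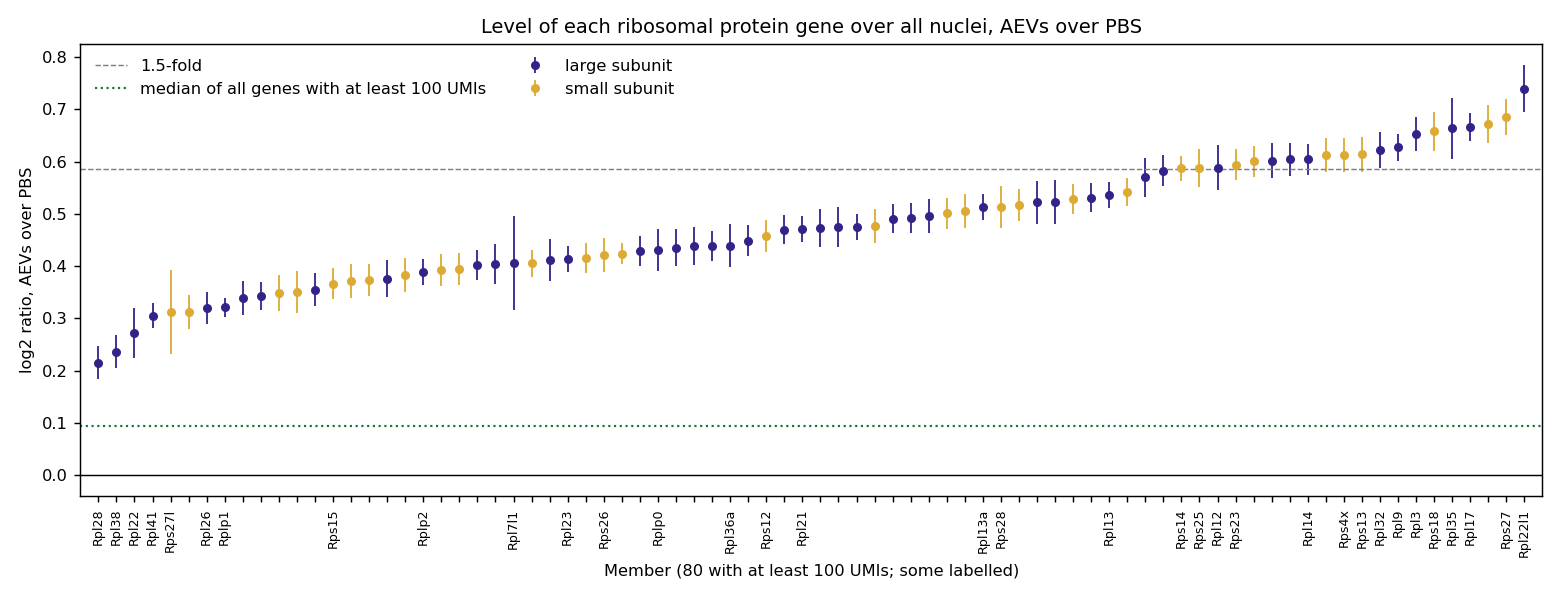
Log2 ratio of AEVs over PBS over all nuclei for each of the 80 ribosomal protein genes with at least 100 UMIs, in order and with some named; bars are 95% intervals for counting error, the dashed line marks 1.5-fold and the dotted line the median of all genes. Every point lies above 0, from 0.22 for Rpl28 to 0.74 for Rpl22l1, and large- and small-subunit genes are mixed along the order.

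Large- and small-subunit genes differed little from each other. The 48 large-subunit genes above the count limit summed to 0.992% and 1.37% of UMIs, a ratio of 1.377 (1.372 to 1.381). The 32 small-subunit genes summed to 0.649% and 0.910%, a ratio of 1.4005 (1.395 to 1.406). Nor did the ratio follow abundance or gene length closely: across the 80 genes, which share both libraries, Spearman's rho of the log2 ratio was -0.16 with the PBS level and 0.02 with gene length. The 30 genes that host small nucleolar RNAs had a median log2 ratio of 0.47 and the other 50 one of 0.48.

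Among single genes, Rpl22l1, a paralog of Rpl22 that can take its place in the large subunit, had the highest ratio. It measured 86.6 CPM (6254 UMIs) in the PBS library and 144.6 CPM (9910 UMIs) in the AEVs library, 1.67-fold (1.62 to 1.72) higher. Rpl22 itself was among the 5 lowest, at 92.2 and 111 CPM, 1.21-fold (1.17 to 1.25). Over all nuclei the paralog was thus below Rpl22 in CPM in the PBS library and above it in the AEVs library. The scale is of 3' counts and is not divided by gene length. Neuron-like nuclei did not show this crossing, with Rpl22l1 above Rpl22 in both libraries (88.2 and 157 beside 55.4 and 71.5 CPM). In microglia-like nuclei it was below in both (101 and 146 beside 305 and 372 CPM). The same held in astrocyte-like, endothelial-like, ependymal-like, fibroblast-like, Schwann-like and Gpnmb phagocyte-like nuclei. The pair of Rps27, a zinc-finger protein of the small subunit, and its paralog Rps27l, a target of p53, was split the other way round. Rps27 stood at 158 and 254 CPM, 1.61-fold (1.57 to 1.65) higher, and Rps27l at 32.7 and 40.5 CPM, 1.24-fold (1.18 to 1.31). The main gene of the first pair and the paralog of the second thus lay at the low end.

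Also at the high end, Rpl17 and Rpl35, large-subunit proteins near the tunnel through which the new chain leaves, measured 249 and 394 CPM and 53.8 and 85.2 CPM. Their ratios were 1.59 (1.56 to 1.62) and 1.58 (1.52 to 1.65). The other genes at the low end were Rpl28, Rpl38 and Rpl41. Rpl28, a large-subunit protein of animals and plants absent from baker's yeast, measured 216 and 251 CPM, a ratio of 1.16 (1.14 to 1.19). Rpl38, whose loss in mice alters the axial skeleton, measured 209 and 246 CPM, a ratio of 1.18 (1.15 to 1.204), and Rpl41, which encodes a very short basic peptide, 355 and 438 CPM, a ratio of 1.24 (1.22 to 1.26). Low ratios therefore occurred among abundant genes (Rpl41, Rpl28) as well as scarce ones (Rps27l).

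Per class, the share of ribosomal protein RNA was lowest in neuron-like and highest in endothelial-like or microglia-like nuclei, and it was higher in the AEVs library in all 10 classes. In the PBS library endothelial-like nuclei, from the lining of vessels, led with 6.03% (5.97 to 6.10), followed by microglia-like nuclei, the resident immune cells, with 4.36% (4.34 to 4.39). In the AEVs library the order of these top classes was turned, with 6.73% (6.70 to 6.76) in microglia-like and 6.60% (6.55 to 6.66) in endothelial-like nuclei. Neuron-like nuclei came last in both, at 1.22% (1.22 to 1.23) and 1.82% (1.82 to 1.83), just below oligodendrocyte precursor-like nuclei, the dividing progenitors, at 1.57% (1.56 to 1.59) and 1.87% (1.85 to 1.90). The highest class exceeded the lowest 4.93-fold in the PBS library and 3.69-fold in the AEVs library. Averaged with equal weight per nucleus, the lowest class was oligodendrocyte precursor-like in both libraries. T or NK cell-like nuclei, with 137 and only 32 nuclei, had a larger share, 10.63% and 10.97%, and the unnamed cluster led by Klk6 a smaller one, 1.11% and 1.48%.

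The ratio was largest in microglia-like, Gpnmb phagocyte-like and neuron-like nuclei and smallest in endothelial-like and fibroblast-like nuclei. Microglia-like nuclei held 4.36% and 6.73%, a ratio of 1.54 (1.53 to 1.56), and Gpnmb phagocyte-like nuclei, myeloid cells led by Gpnmb and Spp1, held 3.32% and 4.97%, a ratio of 1.496 (1.479 to 1.513). Neuron-like nuclei had a ratio of 1.49 (1.48 to 1.49). Schwann-like nuclei, whose cells wrap the axons of peripheral nerve, stood at 3.02% and 4.06%, 1.34 (1.31 to 1.38). The classes of the central glia and of the canal lining lay in the middle: oligodendrocyte-like nuclei at 1.67% and 2.15%, 1.29 (1.28 to 1.30), ependymal-like nuclei at 3.14% and 4.03%, 1.28 (1.26 to 1.31), astrocyte-like nuclei at 2.48% and 3.07%, 1.24 (1.23 to 1.25), and oligodendrocyte precursor-like nuclei 1.19 (1.17 to 1.21). Fibroblast-like nuclei, a class led by collagen genes, held 2.52% and 2.83%, 1.12 (1.11 to 1.14), and endothelial-like nuclei had 1.09 (1.08 to 1.11). All 27 clusters had a ratio above 1, the lowest being the macrophage-like cluster of 164 and 98 nuclei at 5.22% and 5.36%, 1.03 (0.999 to 1.05). Differences between classes in this ratio were not tested, since 1 library per group leaves no spread to test against.

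**Figure D2:**
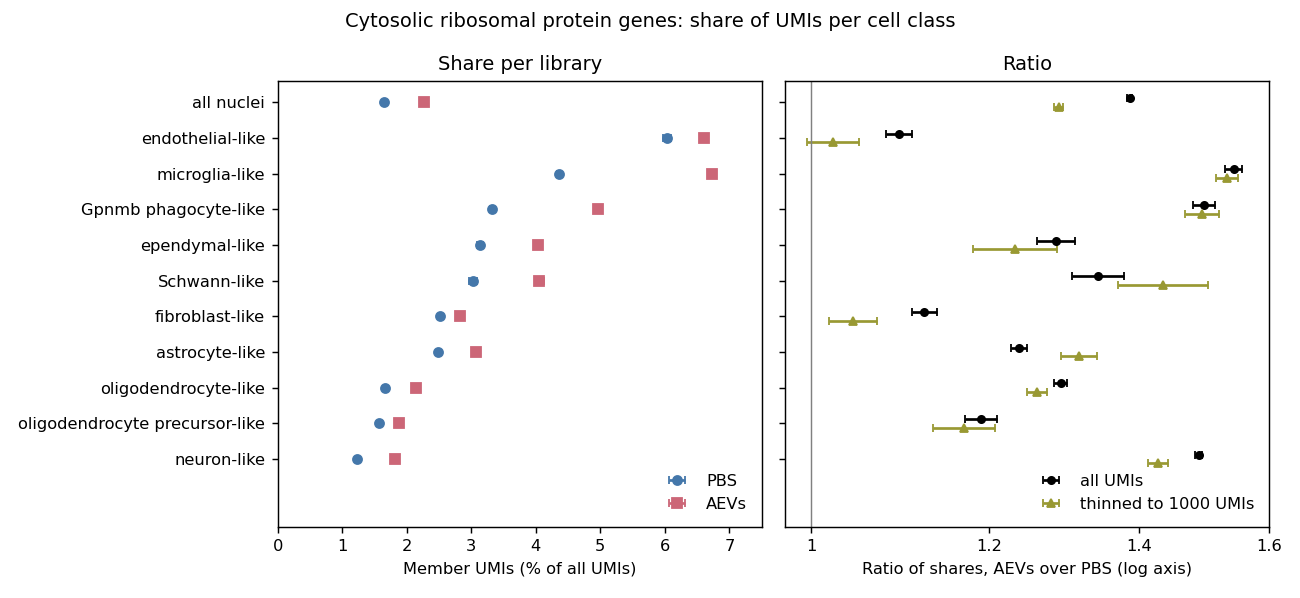
Left, percent of UMIs from ribosomal protein genes per class (circles PBS, squares AEVs); right, their ratio from all UMIs (circles) and after thinning to 1000 UMIs per nucleus (triangles), on a log axis. Bars are 95% intervals for counting error; ratios run from 1.09 in endothelial-like to 1.54 in microglia-like nuclei, and thinning leaves endothelial-like nuclei at 1.02.

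Other measures moved with the library as well. Mitochondrially encoded RNA, which is made outside the nucleus, held 0.397% of UMIs in the PBS library and 0.238% in the AEVs library, so it went in the opposite direction to the ribosomal protein share. In neuron-like nuclei it held 0.301% and 0.125%, and in microglia-like nuclei 0.365% and 0.275%. In Gpnmb phagocyte-like nuclei it was 0.474% in both libraries and in Schwann-like nuclei 0.991% and 1.03%, beside ribosomal protein ratios of 1.496 and 1.34. Across the nuclei within a library, by contrast, both shares went together, with a Spearman's rho of 0.59 and 0.43 over all nuclei. That rho was positive in each of the 10 classes, for example 0.13 and 0.17 in microglia-like and 0.79 and 0.67 in astrocyte-like nuclei. Malat1, an RNA kept in the nucleus, held 4.72% and 4.71% over all nuclei, 2.62% and 1.80% in microglia-like and 4.09% and 4.51% in neuron-like nuclei. Median depth was lower in the AEVs library in each of the 10 classes, for example 8820 beside 7298 UMIs for neuron-like and 1644 beside 1491 UMIs for microglia-like nuclei. Taken over a total without mitochondrially encoded genes and Malat1, the ribosomal protein ratio was 1.38. The part of the other differences in the ratio was not tested beyond the depth comparisons given next. With no mitochondrial limit, under which the 527 PBS and 103 AEVs barcodes of 5% or more entered and doublets were called anew (953 and 1392 in place of 815 and 1355), the ratio over all nuclei was 1.32, and that of astrocyte-like nuclei alone among the 10 classes was below 1, at 0.965.

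Nuclei with few UMIs held a larger share of ribosomal protein RNA than nuclei with many, in both libraries. Over all nuclei the share in nuclei of 500 to 1000 UMIs was 4.31% and 5.04%, against 1.06% and 1.43% in nuclei of over 16000 UMIs, a 4.07-fold and 3.52-fold difference. Spearman's rho across nuclei of a library, which differ in class as well, was -0.56 and -0.45. No nucleus of either library was without a ribosomal protein UMI, and the mean number per nucleus was 31.4 and 37.3 in the shallowest and 296 and 367 in the deepest group. The classes differed in this. Neuron-like nuclei spanned 4.25% and 5.28% at 500 to 1000 UMIs to 0.981% and 1.23% at over 16000. In microglia-like nuclei the share was nearly level in the PBS library, at 4.83%, 4.35% and 4.35% over the first 3 depth groups, and was 8.02%, 6.73% and 6.34% in the AEVs library. Astrocyte-like nuclei of the PBS library had their lowest share in the middle, with 4.24% at 500 to 1000, 1.83% at 2000 to 4000 and 3.01% at 8000 to 16000 UMIs. Their mitochondrially encoded share ran alongside, at 1.88%, 0.590% and 1.75%.

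**Figure D3:**
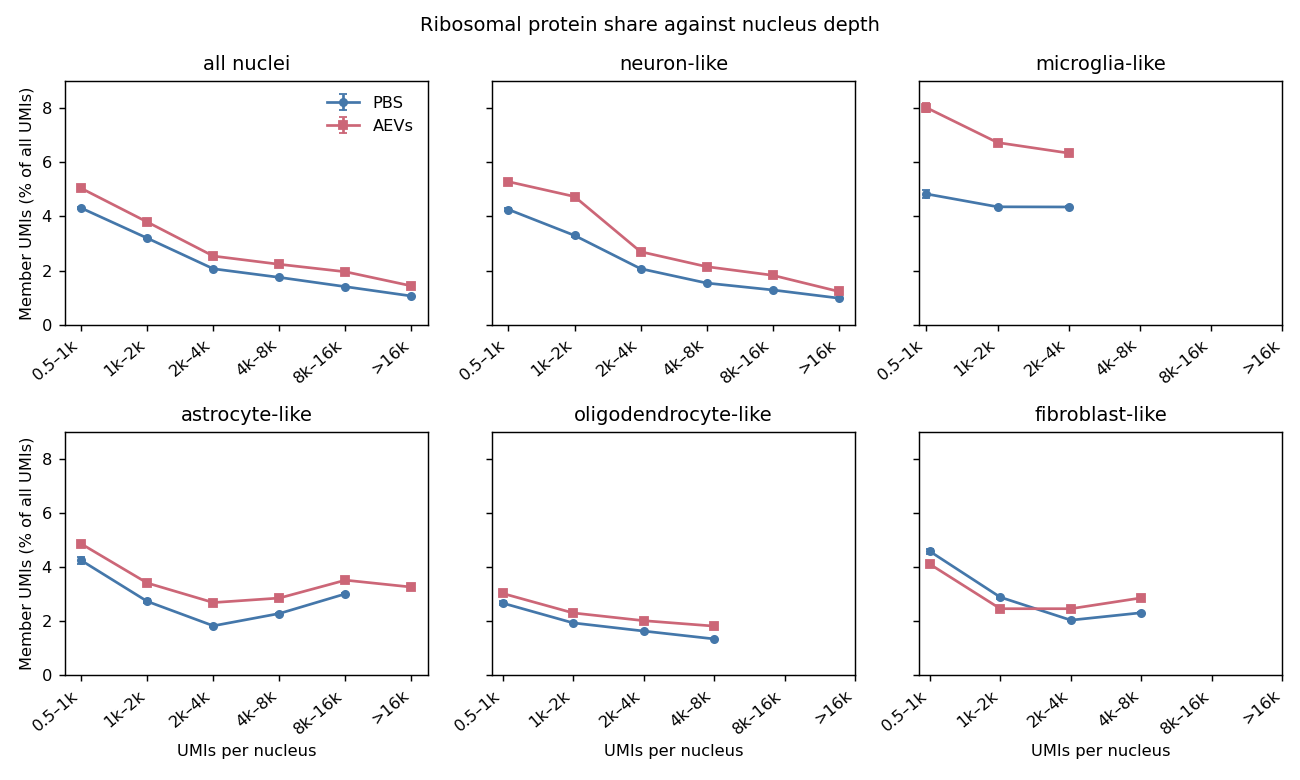
Percent of UMIs from ribosomal protein genes against UMIs per nucleus, in 6 depth groups, for all nuclei and 5 classes (circles PBS, squares AEVs; bars are 95% intervals for counting error, groups under 20 nuclei left out). Lines slope down with depth over all nuclei and in neuron-like nuclei, and the AEVs line lies above the PBS line except in fibroblast-like nuclei under 2000 UMIs.

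At like depth the libraries still stood apart, by less over all nuclei. Of 37 pairs of class and depth group with at least 20 nuclei in each library, 33 had a ratio above 1, with the interval above 1 in 32. Weighted to a common mix of depth groups, the ratio over all nuclei was 1.29. After thinning to 1000 UMIs it was 1.29 (1.28 to 1.30), with 1484 PBS and 1461 AEVs nuclei left out as too shallow. Thinning gives each kept nucleus equal weight and leaves its expected share unchanged, so it does not match the libraries for original depth. Thinning left microglia-like nuclei at 1.53 (1.51 to 1.55) and Gpnmb phagocyte-like nuclei at 1.49 (1.47 to 1.52). The thinned ratio was 1.43 (1.41 to 1.44) in neuron-like and 1.04 (1.02 to 1.07) in fibroblast-like nuclei. In endothelial-like nuclei it was 1.02 (0.996 to 1.05), with an interval that spans 1. The pairs with a ratio under 1 were fibroblast-like nuclei of 500 to 1000 UMIs (4.58% and 4.11%, 0.897, 0.863 to 0.931) and of 1000 to 2000 UMIs (2.89% and 2.46%, 0.853, 0.826 to 0.881), endothelial-like nuclei of 1000 to 2000 UMIs (0.991) and oligodendrocyte precursor-like nuclei of the same depth (0.939), the last 2 with intervals that span 1. Deeper fibroblast-like nuclei had ratios of 1.21 and 1.24. Of the neuron-like class, clusters 4 and 11, whose nuclei had medians of 1028 and 1032 UMIs, had 1.86% and 2.43%, 1.31 (1.29 to 1.33), with 1.30 in cluster 4 and 1.603 in cluster 11. The remaining neuron-like nuclei had 1.18% and 1.79%, 1.52 (1.51 to 1.52), a split made after the clusters were seen.

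**Figure D4:**
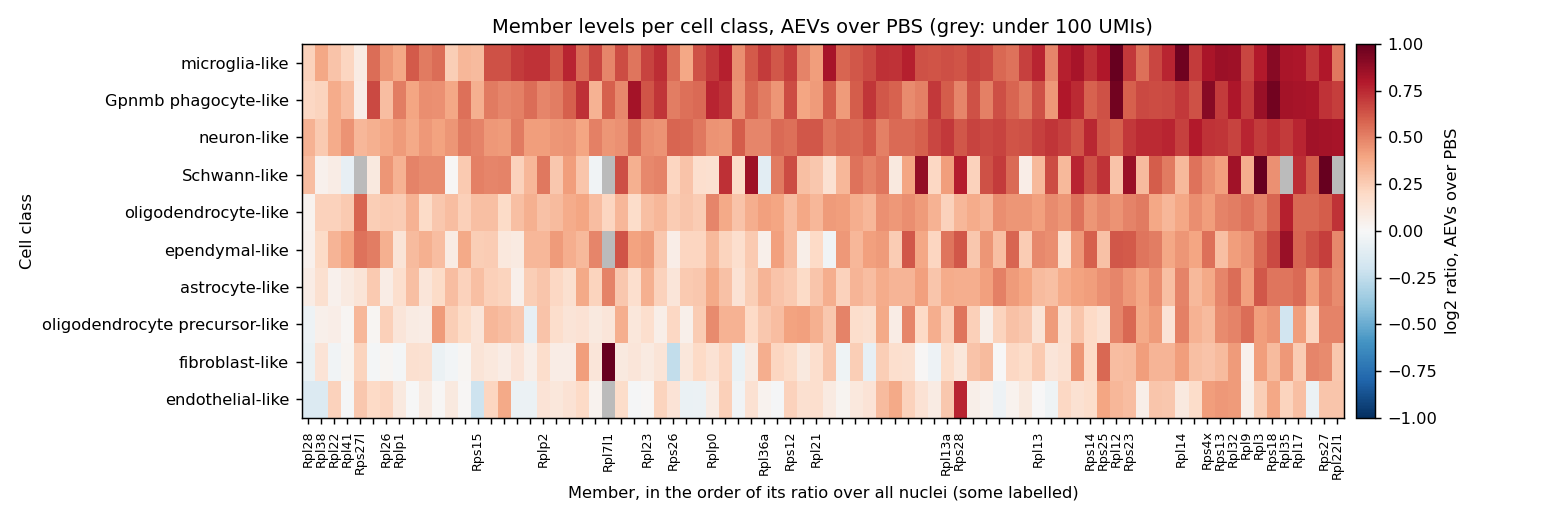
Log2 ratio of AEVs over PBS for the 80 genes (columns, in the order of their ratio over all nuclei, some named) in the 10 classes (rows, in the order of the class ratio); red is higher in AEVs, blue lower, grey under 100 UMIs, and values beyond 1 take the end colour. All 80 values lie above 0 in the microglia-like, Gpnmb phagocyte-like, neuron-like, oligodendrocyte-like and astrocyte-like rows. The lowest, Rps27l, is 0.08 in microglia-like and 0.07 in Gpnmb phagocyte-like nuclei. Endothelial-like and fibroblast-like rows are mostly pale with some blue cells.

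In microglia-like nuclei all 80 genes had a ratio above 1 (all genes 53.8%) and 53 were at least 1.5-fold higher (all genes 9.33%), with a median log2 ratio of 0.66 against 0.03 for all genes. Rpl12, a protein at the base of the stalk, measured 289 CPM in the PBS library and 590 CPM in the AEVs library, 2.04-fold (1.85 to 2.25). Rpl14 of the large subunit followed with 346 and 677 CPM, 1.96-fold (1.79 to 2.15), and Rps18, in the head of the small subunit, with 389 and 730 CPM, 1.88-fold (1.72 to 2.05). Rps13 and Rpl32 were 1.81-fold and 1.80-fold higher. At the low end stood Rps27l with 52.6 and 55.6 CPM, 1.06-fold (0.809 to 1.38), then Rpl41 (1.16), Rpl28 (1.17) and Rpl22 (1.22). The interval of Rps27l spans 1, while those of the other 79 genes lay above it.

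Gpnmb phagocyte-like nuclei showed a like picture, with 80 of 80 genes above 1 (all genes 50.1%), 42 at least 1.5-fold higher (all genes 7.54%) and a median log2 ratio of 0.59 against 0.00. Rpl12 led here as well, at 245 and 479 CPM, 1.95-fold (1.72 to 2.22), followed by Rps18 (290 and 566 CPM), Rps4x (389 and 729 CPM), Rpl3 (281 and 511 CPM) and Rpl35 (124 and 222 CPM). Rps27l was lowest again, at 61.0 and 64.0 CPM, 1.05-fold (0.775 to 1.42), with Rpl28, Rpl38, Rpl26 and Rpl41 from 1.16 to 1.24. The classes share both libraries, so the return of the same genes is not an independent result.

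In neuron-like nuclei all 80 genes were above 1 (all genes 62.6%) and 37 were at least 1.5-fold higher (all genes 8.71%), with a median log2 ratio of 0.57 against 0.10. That count was 66 with the stricter filter and 2 when nuclei were averaged with equal weight. Rps27 measured 108 and 193 CPM, 1.78-fold (1.72 to 1.85), and Rpl22l1 88.2 and 157 CPM, 1.78-fold (1.71 to 1.85). Rps19, the gene most often mutated in Diamond-Blackfan anaemia, and Rpl9 followed at 1.73-fold and 1.70-fold. Rpl38 was lowest at 168 and 201 CPM, 1.196-fold (1.16 to 1.23), then Rps27l (1.26), Rpl28 (1.28), Rps15a (1.28) and Rpl22 (1.29). The intervals of all 80 genes lay above 1 in this class, which holds most of the UMIs.

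Schwann-like nuclei had 73 of 76 genes above 1 (all genes 48.2%) and 19 at least 1.5-fold higher (all genes 9.22%). Rpl3, which reaches the peptide-bond centre of the large subunit, rested on 76 and 156 UMIs, 2.19-fold (1.66 to 2.92), and Rps27 on 83 and 160 UMIs, 2.06-fold (1.57 to 2.72); Rps7, Rps23 and Rpl6 followed at 1.84, 1.82 and 1.80. Rpl36a (0.929), Rpl41 (0.946) and Rpl31 (0.977) were the 3 below 1, each with an interval that spans 1, and Rpl38 stood at 1.03. Counts in this class were small, and 46 of the 76 intervals lay above 1.

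In oligodendrocyte-like nuclei all 80 genes were above 1 (all genes 62.0%), but only 4 were at least 1.5-fold higher, a smaller share than the 11.8% of all genes. These were Rpl35 (47.1 and 80.9 CPM, 1.72, 1.52 to 1.94), Rpl22l1 (60.9 and 100 CPM, 1.65, 1.48 to 1.84), Rps27 (161 and 245 CPM, 1.52, 1.42 to 1.63) and Rps18 (125 and 187 CPM, 1.501, 1.39 to 1.62). Rps27l, near level in the phagocytic classes, came next here with 41.5 and 62.0 CPM, 1.49-fold (1.31 to 1.71). Rpl28 was lowest at 248 and 254 CPM, 1.02-fold (0.966 to 1.09), and Rpl10, Rpl23a and Rpl7l1 lay from 1.13 to 1.16. The median log2 ratio was 0.37 against 0.11 for all genes.

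Astrocyte-like nuclei had 80 of 80 genes above 1 (all genes 54.8%) with a median log2 ratio of 0.31, and 1 at least 1.5-fold higher (all genes 5.72%). That gene was Rpl3, at 225 and 346 CPM, 1.54-fold (1.41 to 1.67), followed by Rpl17, Rpl32, Rpl35 and Rps18 from 1.48 to 1.45. Rpl22, Rpl18, Rpl28, Rpl26 and Rpl41 were lowest, from 1.03 to 1.07. With the stricter filter 41 genes passed 1.5-fold in this class and with no mitochondrial limit none did, so its values rest on which nuclei were kept. Ependymal-like nuclei had 78 of 79 above 1 (all genes 52.8%) and 10 at least 1.5-fold higher (all genes 6.57%), led by Rpl35 with 46 and 74 UMIs, 1.82-fold (1.24 to 2.68), Rps27 (1.62), Rps18 (1.58) and Rps24 (1.54). Rpl39 (0.977), Rpl28 (1.03), Rpl36a (1.03), Rpl37 (1.04) and Rps26 (1.05) were the lowest.

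Oligodendrocyte precursor-like nuclei had 77 of 80 genes above 1 (all genes 51.4%) and none at least 1.5-fold higher (all genes 6.16%), with a median log2 ratio of 0.26. Rps23, at 201 and 301 CPM, was highest at 1.49-fold (1.30 to 1.72), with Rpl9, Rps28, Rpl14 and Rpl15 from 1.48 to 1.41. Rpl35, among the highest in several classes, was the lowest here, at 107 and 67 UMIs, 0.875-fold (0.635 to 1.199), and Rps9 (0.944) and Rpl28 (0.967) were also below 1. The intervals of these 3 span 1.

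Endothelial-like and fibroblast-like nuclei came closest to an even split. Endothelial-like nuclei had 64 of 79 genes above 1 (all genes 51.9%) and 1 at least 1.5-fold higher (all genes 5.72%): Rps28, which lies at the mRNA exit of the small subunit, at 388 and 657 CPM, 1.69-fold (1.45 to 1.99). Rps13, Rpl32, Rps4x and Rps25 followed from 1.35 to 1.31. Rps15, at 1046 and 907 CPM, was the lowest at 0.867-fold (0.778 to 0.966), the only gene of this class whose interval lay below 1, and Rpl28 (0.908), Rpl38 (0.910) and Rps9 (0.960) were also below 1. With the stricter filter 30 genes passed 1.5-fold in this class.

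Fibroblast-like nuclei had 69 of 80 genes above 1 (all genes 56.2%) and 1 at least 1.5-fold higher (all genes 8.01%). That gene was Rpl7l1, a paralog of Rpl7, with 53 and 56 UMIs, 21.6 and 44.8 CPM, 2.07-fold (1.397 to 3.07); Rps25, Rps27 and Rpl30 had ratios from 1.49 to 1.36. Rps26, at 313 and 264 CPM, was lowest at 0.842-fold (0.738 to 0.959), the only one here with an interval below 1, and Rps2, Rpl28, Rpl7a and Rps6 lay from 0.946 to 0.961. In none of the 10 classes was any ribosomal protein gene at least 1.5-fold lower. Of all genes, this held for 4.87% in microglia-like, 6.43% in Gpnmb phagocyte-like, 4.22% in neuron-like, 11.1% in Schwann-like and 4.98% in oligodendrocyte-like nuclei. It held for 3.19% in astrocyte-like, 8.13% in ependymal-like, 6.46% in oligodendrocyte precursor-like, 5.59% in endothelial-like and 6.79% in fibroblast-like nuclei.

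Which ribosomal protein genes made up the total differed between classes much less than the total itself. Over the 76 genes with at least 100 UMIs in every class, a gene's share of ribosomal protein UMIs differed by a median of 1.404-fold between its lowest and highest class with both libraries pooled, and 25 genes reached 1.5-fold. Across these 76 genes, Pearson's r of the log shares between pairs of classes ran from 0.77 to 0.98 in the PBS library and from 0.73 to 0.97 in the AEVs library; the classes of a library share any free RNA and the same reads. Rplp0, the backbone of the stalk, varied most: it held 0.528% and 0.485% of ribosomal protein UMIs in neuron-like nuclei and 1.49% and 1.24% in Schwann-like nuclei. Rpl13, a large-subunit protein, was next, at 4.12% and 3.78% in oligodendrocyte precursor-like nuclei against 1.72% in the lowest class of the PBS library (ependymal-like) and 1.78% in that of the AEVs library (oligodendrocyte-like). Rps12 held 1.02% and 0.985% in ependymal-like and 1.90% and 1.99% in microglia-like nuclei, and Rpl22 0.452% and 0.392% in neuron-like nuclei. Rpl3 ran the other way, lowest in endothelial-like (0.698% and 0.758%) and highest in neuron-like nuclei (1.27% and 1.38%). The extreme class was the same in both libraries for Rplp0, Rps12 and Rpl3.

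The paralogs also differed by class. Of the 16 and 49 UMIs of Rpl3l, neuron-like nuclei held 11 and 29, astrocyte-like nuclei 2 and 15, and each of the other 8 classes 1 or none per library. Rps27l was scarce in neuron-like nuclei, at 18.2 and 22.9 CPM, and reached 126 and 152 CPM in endothelial-like nuclei. Rpl22l1 ran from 60.9 CPM (oligodendrocyte-like) to 155 CPM (ependymal-like) in the PBS and from 87.3 CPM (oligodendrocyte precursor-like) to 216 CPM (ependymal-like) in the AEVs library. In the 9 classes where it had at least 100 UMIs (in Schwann-like nuclei it had 33 and 55), it was higher in the AEVs library and its ratio was above that of Rpl22, for example 1.61 beside 1.30 in Gpnmb phagocyte-like and 1.21 beside 1.17 in endothelial-like nuclei.

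Other genes of translation were compared as lists, over all nuclei. Of 19 elongation factors and other mRNAs with a TOP, 19 had a ratio above 1, with a median log2 ratio of 0.39, below that of the ribosomal proteins. Among them, Fau and Rack1 encode a part and a partner of the ribosome and fall outside the symbol rule: Fau (378 and 495 CPM, log2 ratio 0.39) and Rack1 (101 and 141 CPM, 0.48). Eif3f, an initiation factor subunit, and Npm1, a nucleolar chaperone, were highest at 0.69 and 0.62, and the elongation factors Eef2 and Eef1d lowest at 0.07 and 0.08, while Eef1a1 stood at 0.47. Noncoding TOP transcripts and hosts of small nucleolar RNAs, many of them quickly degraded in the cytoplasm, had the highest median of the lists, 0.85, with 11 of 11 above 1. Snhg8 (25.8 and 63.2 CPM, 1.29) and Snhg3 (20.2 and 43.9 CPM, 1.12) led, and Snhg17 (0.26) and Snhg15 (0.30) were lowest.

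**Figure D5:**
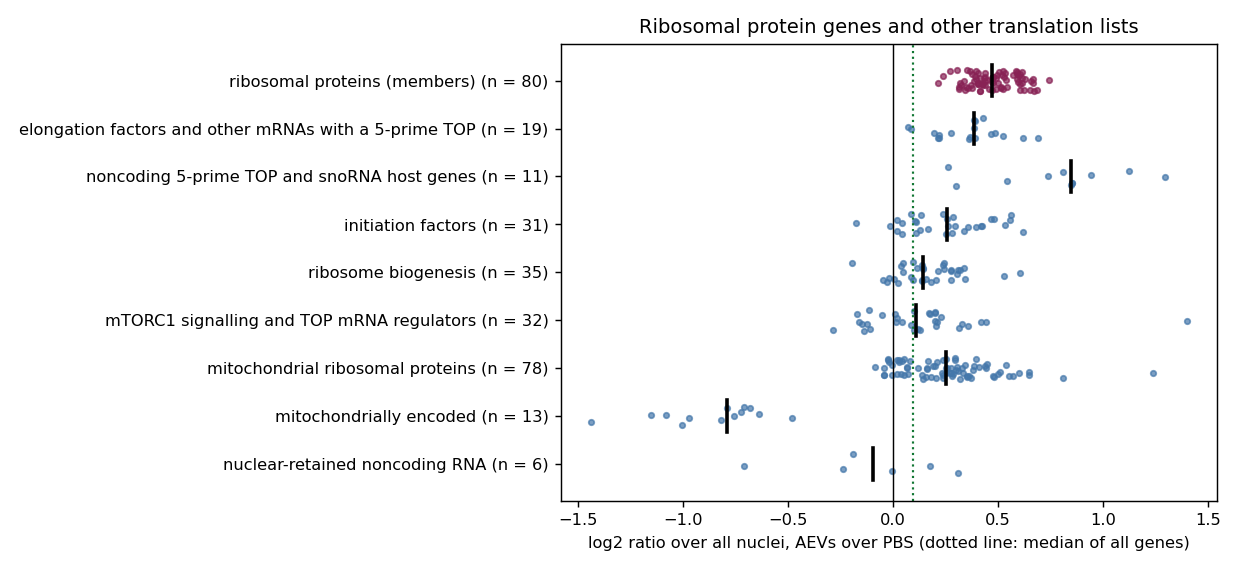
Log2 ratio of AEVs over PBS over all nuclei for each ribosomal protein gene and each gene of 8 other lists with at least 100 UMIs; vertical bars are medians and the dotted line the median of all genes, with points spread vertically for sight only. Ribosomal protein genes centre on 0.47, noncoding TOP and small nucleolar RNA host genes on 0.85 and mitochondrially encoded genes on -0.79.

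Genes that act before or beside the ribosome leaned less. Of 31 initiation factors 29 were above 1, median 0.26, with Eif2b4 (0.62) and Eif2b5 (0.56) highest and Eif4g3 (-0.18) and Eif4g1 (-0.01) lowest. Of 35 ribosome biogenesis genes 31 were above 1, median 0.14, from Gnl3 (0.61) and Polr1c (0.53) to Bop1 (-0.19) and the nucleolar methyltransferase Fbl (-0.05). Of 32 genes of mTORC1 signalling 23 were above 1, median 0.11, close to the 0.09 of all genes. Ddit4, an inhibitor of mTORC1 induced by stress and glucocorticoids, was highest at 37.7 and 99.4 CPM, 2.64-fold, followed by Cnbp (0.44), which binds TOP mRNAs. Rptor, which brings substrates to the complex, was lowest at 124 and 102 CPM, -0.29, with Deptor (-0.17).

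The mitochondrial side was divided. Of 78 mitochondrial ribosomal protein genes, which are encoded in the nucleus, 69 were above 1, median 0.25, with Mrpl41 (1.23) and Mrpl2 (0.81) highest and Mrpl35 (-0.08) and Mrpl34 (-0.04) lowest. All 13 mitochondrially encoded genes were below 1, median -0.79, from mt-Co1 (-0.48) and mt-Atp8 (-0.64) to mt-Nd2 (-1.44) and mt-Nd4l (-1.15). Nuclear-retained noncoding RNAs had 2 of 6 above 1, median -0.10. All 5 red-cell markers were above 1, median 1.07, with 0.00575% and 0.0125% of UMIs in sum, and all 10 T or NK cell markers below 1, median -1.97; their part in the ribosomal protein values was not tested. Gene length went with the ratio over all genes: other genes of up to 5000 bases had a median log2 ratio of 0.28 (2143 genes), those of 5000 to 20000 bases 0.21, those of 20000 to 100000 bases 0.05 and longer ones -0.12. Of 200 other genes of up to 5000 bases at 50 CPM or more in the PBS library, 154 were above 1, with a median of 0.22 beside 0.47 for the ribosomal protein genes. The part of gene length in the ribosomal protein ratio was not tested.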

How the data were processed

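Single-nucleus 3' libraries were made from frozen spinal cord, per the labels' protocols, and the authors deposited raw UMI counts per gene and barcode; mm10 and Seurat are named in the submitters' processing notes, while the choice of aligner, gene models, and correction for free RNA or doublets was not given in the sources used here. Barcodes with at least 300 genes, 500 UMIs and under 5% mitochondrial UMIs were kept, and Scrublet calls (815 PBS, 1355 AEVs) were removed. Nuclei of both libraries were clustered with scanpy 1.11.5 (2000 variable genes, 30 principal components, 20 neighbours, Leiden resolution 1.0), and clusters were named from marker lists. Counts were summed per class and library. Levels have exact Poisson, shares Clopper-Pearson and ratios exact conditional binomial 95% intervals. Only the ratio intervals were tried on simulated data, drawn with the Poisson counting error they assume, so spread between nuclei, mice or pools was not covered. A gene needed at least 100 UMIs over both libraries. TMM factors came from edgeR 4.0.16. With 1 library per group no test across samples was run.

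Named genes are the 5 highest and 5 lowest ratios per comparison, the 10 most and 5 least abundant, the 5 most class-dependent, the paralogs, and 2 from each end of every other list; Snhg7, Rpl26l1 and Rps4l were not among the symbols. A few genes that the rule would name are not reported here. Members and lists were chosen with earlier results of these data known; the start windows, gene-length comparison and split of the neuron-like class were chosen after seeing the data. Alternatives were a stricter filter (500 genes, 1000 UMIs, 1% mitochondrial), no mitochondrial limit, doublets kept, Leiden resolution 2.0, other gene sets for clustering, thinning, means over nuclei, TMM scaling, a minimum of 20 UMIs, and standardised depth or cluster mixes.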

Additional observations from a re-analysis of the deposited data

Results flagged for a closer look

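Fibroblast-like nuclei of 500 to 1000 UMIs had a ribosomal protein ratio of 0.897 and those of 1000 to 2000 UMIs one of 0.853, lower in the AEVs library, while fibroblast-like nuclei of 2000 to 4000 UMIs had 1.21 and the class as a whole 1.12. The difference between depth groups was not tested across samples. In barcodes left out of the comparisons for a mitochondrial share of 5% or more, ribosomal protein genes held 8.00% of UMIs in the AEVs library (103 barcodes), above the 5.87% in the PBS library (527 barcodes). In barcodes removed as doublet calls they held 2.76% in the AEVs library (1355 barcodes), above the 1.93% in the PBS library (815 barcodes).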

How the results depend on the processing

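The ribosomal protein ratio over all nuclei, 1.39, was 1.49 with the stricter filter, 1.32 with no mitochondrial limit, 1.41 with doublet calls kept, 1.29 after thinning, 1.25 as a mean over nuclei, 1.31 with TMM scaling, 1.39 without the 5 most abundant genes, 1.29 at one depth mix and 1.39 at one cluster mix. All 10 classes had a ratio above 1 except that astrocyte-like nuclei reached 0.965 with no mitochondrial limit (9 of 10), and the stricter filter left 8 classes, 8 of them above 1. The lowest class ratio was 1.02 after thinning (endothelial-like) and 1.00 as a mean over nuclei (fibroblast-like). No alternative gave a gene at least 1.5-fold lower over all nuclei or in the 10 classes, in 106 counts. Doublets were called anew under the stricter filter and with no mitochondrial limit, so those settings change both choices. Counts of genes at least 1.5-fold higher depended on the settings. The share of all genes past this fold is given for the main settings only, so the counts below cannot be set against it. The stricter filter gave 38 over all nuclei, 41 in astrocyte-like, 30 in endothelial-like, 6 in fibroblast-like, 66 in neuron-like and 2 in oligodendrocyte precursor-like nuclei. With no mitochondrial limit there were 6 over all nuclei, 0 in astrocyte-like, 3 in ependymal-like and 1 in oligodendrocyte precursor-like nuclei. Thinning gave 2 over all nuclei, 10 in astrocyte-like, 0 in endothelial-like and 4 in oligodendrocyte precursor-like nuclei, and means over nuclei 1, 7 (astrocyte-like), 4 (ependymal-like), 2 (neuron-like) and 3 (oligodendrocyte precursor-like). TMM scaling gave 3 over all nuclei, 23 in neuron-like and 2 in oligodendrocyte-like nuclei. Astrocyte-like nuclei had 2 with doublet calls kept and 3 when ribosomal protein, mitochondrial and hemoglobin genes were allowed among the variable genes, where 0 ribosomal protein genes were then selected, and oligodendrocyte precursor-like nuclei 1 under both and at resolution 2.0. The highest over the lowest class, 4.93 for PBS and 3.69 for AEVs, was 4.08 and 3.78 (stricter filter), 5.12 and 3.79 (no mitochondrial limit), 5.07 and 3.44 (doublets kept), 5.11 and 3.76 (resolution 2.0), 5.30 and 3.82 (those genes allowed), 3.65 and 3.39 (thinned), and 3.32 and 3.49 (means over nuclei). The shallowest over the deepest nuclei, 4.07 and 3.52, was 4.13 and 3.65 with depth counted outside the ribosomal protein genes. The median log2 ratio of the 23 named genes, 0.46, was 0.55 (stricter filter), 0.40 (no mitochondrial limit), 0.35 (thinned), 0.34 (means over nuclei) and 0.37 (TMM). With TMM the list medians were 0.30 (TOP mRNAs), 0.17 (initiation), 0.060 (biogenesis) and 0.026 (mTORC1). The stricter filter gave 0.32 for initiation and -0.57 for mitochondrially encoded genes, which had -1.22 with no mitochondrial limit. Without clusters 4 and 11, an alternative chosen after seeing the data, neuron-like nuclei had 1.52. The cause of these differences was not tested. Of 184 alternative values of single named genes over all nuclei none changed direction, but 112 were counted as moved and 72 as the same. Of 109 alternative class ratios, 61 were counted as moved, 47 as the same and 1 as reversed. No paired analysis was possible because each group has 1 library. Intervals cover counting error, so differences between mice or pools cannot be told apart from the treatment, and genes under 100 UMIs are too shallow to compare.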
